A study of Mus musculus with 10 samples.

Results

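The liver IGF1 axis was followed here through 8 genes: the hormone Igf1, its circulating partner Igfals, the IGF binding proteins Igfbp1, Igfbp2, Igfbp3, Igfbp4 and Igfbp7, and the receptor Igf1r. The members were chosen by name. They are 8 of the 43629 genes in the count table, and each was among the 14143 genes with enough reads to be tested. The livers came from adult male KL mice, which carry Lkb1 flox/flox, backcrossed to FVB, a model of lung cancer in which tumours had been induced in all animals of both groups. Tumours were started by intranasal adenovirus that drives Cre from the CMV promoter, so recombination was not tied to a lung cell type by the promoter, and no tumour-free mice were analysed here. In 5 mice the cancer anorexia-cachexia syndrome had developed (CACS, mice 16 to 20, weight change -30.6% ± 1.82, SD, n = 5), and 5 mice without it served for comparison (NCACS, mice 11 to 15, -8% ± 4.64, SD, n = 5). The study set these groups by weight loss itself: a mouse counted as CACS if its loss from peak weight exceeded 15%, and as NCACS if not. The study profiled these livers to learn how hepatic glucose metabolism differs once cachexia has set in.

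Growth hormone from the pituitary acts on its receptor in hepatocytes and, through JAK2 and STAT5, drives transcription of Igf1, and the liver is the main source of IGF1 in blood. Most circulating IGF1 travels in a ternary complex with IGFBP3 and the acid-labile subunit encoded by Igfals, while smaller binding proteins such as IGFBP1 and IGFBP2 are set more by feeding and insulin. Fasting and illness commonly make the liver resistant to growth hormone, a state in which hepatic Igf1 falls and Igfbp1 rises.

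Each liver gave between 31459179 and 40746178 counts. The defining hepatocyte transcripts were abundant, with Alb at 4.49 to 8.51% of counts in NCACS and 8.76 to 10.5% in CACS livers. The summed level of 8 hepatocyte markers ranged from 66213 to 115638 CPM in NCACS and, in CACS livers, from 106386 to 133797 CPM. CPM is a share of the library's counts, scaled by the trimmed mean of M values (TMM). The 7 Kupffer cell markers summed to 170 to 285 CPM in NCACS livers against 101 to 204 CPM in CACS. The ranges for 9 sinusoidal endothelial markers were 213 to 311 and 275 to 343 CPM, and for 9 stellate cell markers 206 to 353 and 249 to 353 CPM. These sums follow the most abundant genes of each list, such as Alb. Of the hepatocyte markers 6 were higher in CACS livers, and Ttr and Serpina1c were lower. Of the stellate markers 5 were higher and 4 lower, among them Col1a1 and Col3a1 (log2 fold change -1.27 and -0.96, neither past the threshold given below). Cholangiocyte, lymphocyte, neutrophil and lung epithelial markers each summed to no more than 52.7 CPM in any liver, and the lung transcription factor Nkx2-1 was close to 0. In bulk livers, fewer cells of a type and less RNA per cell cannot be told apart, which bears on every value below. One NCACS liver, mouse 15, stood apart in the clock gene Dbp, at 1.27 CPM against 52.1 to 82.9 in the other NCACS livers and 18.8 to 58.8 in CACS livers. Its part in the results was not tested, and values without it are given beside some of them.

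Of the 8 members, 1 passed the threshold between CACS and NCACS livers, Igf1, which was higher in CACS. The threshold was a Benjamini-Hochberg adjusted p under 0.05 in edgeR's quasi-likelihood test, and 3.80% of all genes tested passed it (1.89% higher and 1.92% lower in CACS). At an unadjusted p under 0.05 the members numbered 3 of 8 (Igf1, Igfbp2 and Igfbp4), against 21.6% of all genes. Differences were positive for 6 members and negative for 2, and their median log2 fold change of 0.19 compares with -0.01 over all genes.

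**Figure D1:**
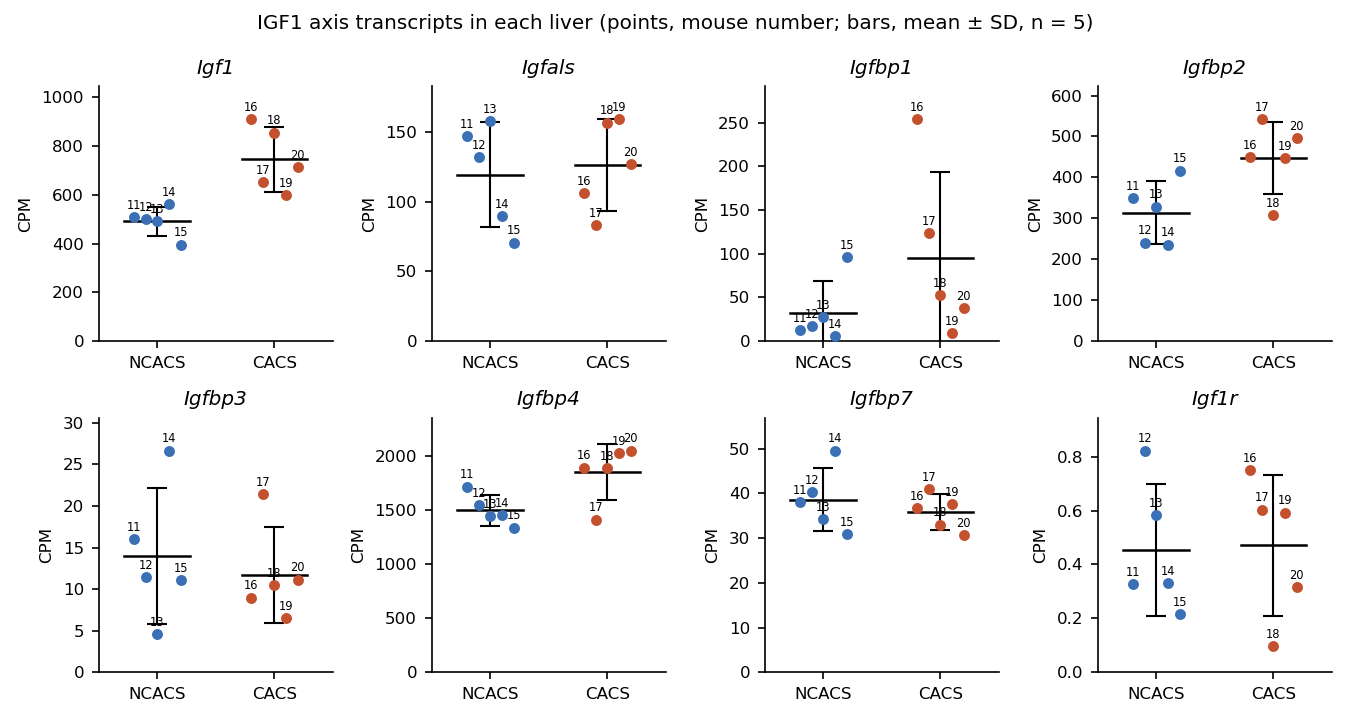
Level of each member in every liver in CPM on a linear axis that starts at 0, with points numbered by mouse, horizontal lines at the group mean and bars of 1 SD (n = 5 per group, cut at 0 where the SD exceeds the mean). The 5 CACS livers lie at 599 CPM and above for Igf1 and the NCACS livers at 561 CPM and below, whereas the groups overlap for the other members.

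Igf1 (ENSMUSG00000020053, chr10:87858265-87937042, plus strand, GRCm38) encodes the hormone itself. Its level in the NCACS livers of mice 11 to 15 was 509.5, 501, 491, 561 and 396 CPM. The CACS livers of mice 16 to 20 had 910, 651, 855, 599 and 713 CPM. Every CACS liver was thus above every NCACS liver, a separation seen for 7.07% of all genes and for no other member. The group means were 492 ± 60.1 and 746 ± 133 CPM (n = 5 each, ± SD), a log2 fold change of 0.60 (SE 0.145, 95% interval 0.28 to 0.92, edgeR adjusted p = 0.0437), or 1.52-fold. An exact two-sided permutation test over every division of the livers into 5 and 5 gave p = 0.00794, the smallest it can give.

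The call for Igf1 lay close to the threshold. Leaving out one mouse at a time kept the log2 fold change between 0.52 and 0.67, but the edgeR adjusted p was under 0.05 only without CACS mouse 17 (0.0468) and ranged up to 0.0921, reached without CACS mouse 16. Scaling the libraries on the 8 hepatocyte markers, an alternative chosen after seeing the data, moved the median of all genes to -0.26 and the log2 fold change of Igf1 to 0.36 (edgeR adjusted p = 0.159). Igf1os, an antisense transcript within the Igf1 locus, shares 0 exon bases with it.

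Igfals (ENSMUSG00000046070, chr17:24865997-24882010, plus strand) encodes the acid-labile subunit, which holds IGF1 and IGFBP3 in the long-lived serum complex and is, like Igf1, a growth hormone target in liver. Its upstream sequence is shown because STAT5 sites are the route by which growth hormone acts on such genes. RefSeq promoter windows on GRCm38.p6 were found for 8 of 8 members (11 windows of 250 bases before a transcript start). Each window was searched on both strands for 5 motifs. The STAT site was searched as TTCNNNGAA and the FOXO site as GTAAACA. The core of an insulin response element was taken as CAAAACA. For HNF1 the single arm GTTAAT of its palindromic site was used. A TATA box was TATAAA. The sequence before the start at chr17:24877981-24878214, plus strand, reads 5′ to 3′ with the matches in capitals, a FOXO site on the reverse strand first and a STAT site second:
Igfals: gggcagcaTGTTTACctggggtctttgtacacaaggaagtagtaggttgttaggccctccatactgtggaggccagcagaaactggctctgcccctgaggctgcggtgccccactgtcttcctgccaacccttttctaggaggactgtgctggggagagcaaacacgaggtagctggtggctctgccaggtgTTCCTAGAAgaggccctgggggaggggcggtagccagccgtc
STAT sites occur in 7.02% and FOXO sites in 3.17% of the 32851 windows of this length over all genes. A match is a description of letters, not evidence of binding. A second Igfals window also held 1 STAT site. The Igf1 window, which lies within an annotated exon and is not printed, held none of the 5 motifs.

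Igfals transcripts showed no difference that passed the test. In NCACS livers 11 to 15 they stood at 147, 132, 158, 89.6 and 70.5 CPM. The CACS values, mice 16 to 20, were 106, 83.1, 157, 159 and 127 CPM. The ranges overlapped almost wholly, with means of 119 ± 37.7 and 126 ± 32.8 CPM (n = 5 each, ± SD) and a log2 difference of 0.08 (SE 0.240, edgeR adjusted p = 0.883). The 95% interval of the fold, 0.736 to 1.52, does not exclude a difference of the size seen for Igf1, and whether the 2 changes differ was not tested. Under hepatocyte marker scaling the log2 fold change of Igfals was -0.15, and without NCACS mouse 15 it was -0.055.

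Igfbp1 (ENSMUSG00000020429, chr11:7197782-7202546, plus strand) encodes a small binding protein that hepatocytes make when insulin is low and that keeps IGF1 from its receptor. Its neighbour Igfbp3 (ENSMUSG00000020427, chr11:7206086-7213923, minus strand) encodes the main serum carrier of IGF1, and the genes lie 3539 bases apart. Their upstream sequences are set side by side because the genes are neighbours with different levels in these livers. The windows span chr11:7197537-7197781, plus strand, and chr11:7213924-7214173, minus strand, each written 5′ to 3′ on the strand of its gene, with motif matches in capitals:
Igfbp1: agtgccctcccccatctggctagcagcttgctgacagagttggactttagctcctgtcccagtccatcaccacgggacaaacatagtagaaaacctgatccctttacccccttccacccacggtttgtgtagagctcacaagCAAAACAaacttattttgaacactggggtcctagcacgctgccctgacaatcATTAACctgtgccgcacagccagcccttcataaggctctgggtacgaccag
Igfbp3: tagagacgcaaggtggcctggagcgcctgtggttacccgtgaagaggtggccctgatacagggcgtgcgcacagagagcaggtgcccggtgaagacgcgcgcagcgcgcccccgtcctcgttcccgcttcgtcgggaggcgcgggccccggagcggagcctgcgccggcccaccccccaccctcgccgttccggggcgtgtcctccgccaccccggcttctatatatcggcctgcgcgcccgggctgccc
The Igfbp1 sequence has a GC content of 52.7%, with an insulin response core that begins 103 bases before the window's end and an HNF1 arm on the reverse strand at 51 bases. These motifs occur in 5.56% and 6.43% of all windows. The Igfbp3 sequence has a GC content of 73.2% and holds none of the 5 sets of letters. Among the remaining windows, that of Igfbp4 held a TATA box, a motif found in 12.4% of all windows, and those of Igfbp2, Igfbp7 and Igf1r held no match.

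Igfbp1 was the most variable member. Its level in NCACS livers 11 to 15 was 12.4, 17.1, 27.1, 5.75 and 95.7 CPM. In CACS livers 16 to 20 it was 254, 123, 52.7, 9.21 and 37.8 CPM. The highest levels were in CACS mice 16 and 17, but CACS mouse 19 was lower than 4 of the NCACS livers and NCACS mouse 15 was higher than 3 of the CACS livers. The means were 31.6 ± 36.6 and 95.4 ± 98.1 CPM (SD, n = 5 each), and the log2 fold change of 1.60 (SE 0.856, edgeR adjusted p = 0.305) had a 95% interval from 0.827-fold to 11.04-fold. Without NCACS mouse 15, the liver with little Dbp, the log2 fold change was 2.62 (edgeR adjusted p = 0.113), and without CACS mouse 16 it was 0.82.

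Igfbp2 (ENSMUSG00000039323, chr1:72824503-72852474, plus strand) encodes another binding protein that fasting raises and insulin lowers. Its level was 349, 241, 328, 235 and 416 CPM in NCACS livers 11 to 15. Mice 16 to 20 of the CACS group had 450, 542, 307, 447 and 496 CPM. All CACS livers but mouse 18 were above every NCACS liver. The means of 314 ± 76.6 and 448 ± 88.1 CPM (SD, n = 5 each) gave a log2 fold change of 0.51 (SE 0.191, 95% interval 0.10 to 0.93), which did not pass the threshold (edgeR adjusted p = 0.144, exact permutation p = 0.0476 unadjusted).

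Igfbp4 (ENSMUSG00000017493, chr11:99041244-99054392, plus strand) encodes a binding protein that inhibits IGF action until the protease PAPP-A cuts it. Its level was 1715, 1546, 1441, 1453 and 1337 CPM in NCACS livers 11 to 15. The CACS livers of mice 16 to 20 had 1890, 1411, 1885, 2025 and 2047 CPM. Again 4 of 5 CACS livers were above every NCACS liver, and here the exception was mouse 17, well below the other CACS livers. With means of 1498 ± 142 and 1852 ± 257 CPM (SD, n = 5 each) the log2 fold change was 0.31 (SE 0.135, edgeR adjusted p = 0.216, exact permutation p = 0.0397 unadjusted). On the hepatocyte marker scale this difference was 0.05 and that of Igfbp2 was 0.26.

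Igfbp3 and Igfbp7 showed no difference that passed the test. Igfbp3 ranged from 4.59 to 26.6 CPM in NCACS livers and from 6.54 to 21.4 CPM in CACS livers, with 142 to 884 counts behind each value. The log2 fold change was -0.25 (SE 0.411, 95% interval -1.15 to 0.64, edgeR adjusted p = 0.768), and it became 0.12 without NCACS mouse 14, the liver with the highest level. Igfbp7 (ENSMUSG00000036256, chr5:77349240-77408041, minus strand) encodes a related protein that binds IGF1 only weakly and is made by vascular and stromal cells. Its levels were close in both groups, 38.6 ± 7.06 and 35.8 ± 4.05 CPM (SD, n = 5 each), with a log2 fold change of -0.11 (SE 0.129, 95% interval -0.39 to 0.17, edgeR adjusted p = 0.673). That difference was -0.0028 without NCACS mouse 14, -0.18 without NCACS mouse 15 and -0.35 on the hepatocyte marker scale (edgeR adjusted p = 0.157), none past the threshold. Polr2b on the opposite strand shares 85 of the 1209 exon bases of Igfbp7, and since the strand setting of the counting is not given in the sources used here, a small part of its reads is uncertain.

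Igf1r (ENSMUSG00000005533, chr7:67952827-68233668, plus strand), the receptor through which IGF1 signals in muscle and most other tissues, was barely detected in liver. Counts in NCACS livers 11 to 15 were 11, 33, 18, 11 and 7. The CACS livers of mice 16 to 20 gave 30, 23, 3, 21 and 11. The means were 0.455 ± 0.245 and 0.471 ± 0.261 CPM (SD, n = 5 each), and with the log2 fold change of 0.05 (SE 0.486) the 95% interval reached from -1.01 to 1.12, so that no difference was detectable at this depth (edgeR adjusted p = 0.961).

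**Figure D2:**
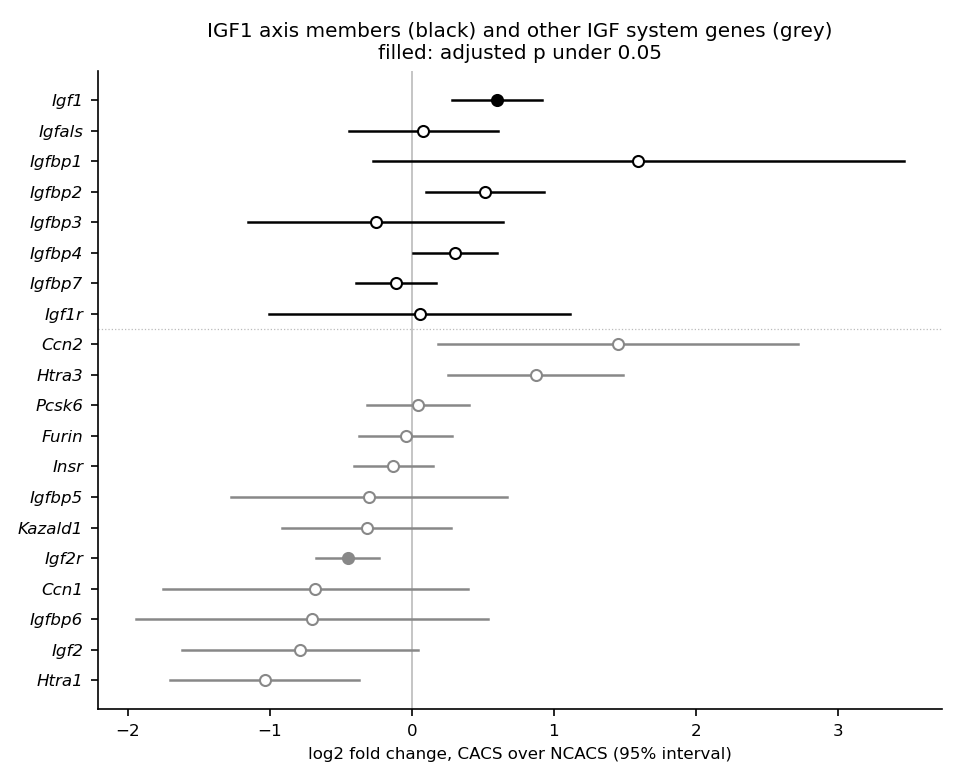
Log2 fold change of CACS over NCACS livers with its 95% interval from edgeR, for the 8 members in black and 12 other genes of the IGF system in grey, filled where the adjusted p was under 0.05. Igf1 at 0.60 and Igf2r at -0.45 are the filled points, and the interval of Igfbp1 is the widest among the members.

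Levels of different genes were compared per kilobase of merged exons (RPKM, mean ± SD over the 10 livers, n = 10). Igfbp4 was the most abundant member at 379 ± 61.2 RPKM, followed by Igfbp2 at 206 ± 57.0 and Igf1 at 62.5 ± 16.7. Igfbp1 at 41.7 ± 50.8, Igfals at 38.8 ± 10.6 and Igfbp7 at 30.7 ± 4.65 lay within their spread of each other. Igfbp3 at 4.10 ± 2.16 and Igf1r at 0.0276 ± 0.0142 were far lower.

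The 5 binding protein transcripts together summed to 510 to 622 RPKM in NCACS livers and to 658 to 871 RPKM in CACS livers. This sum was not tested. None of the 5 genes passed the threshold, and the groups overlapped for each of them, where 7.07% of all genes showed no overlap. Igfbp4 made up 60.2% ± 6.91 of that sum in NCACS and 55.7% ± 9.03 in CACS livers, and Igfbp2 made up 29.7% ± 4.97 and 32.0% ± 5.71 (SD, n = 5 each). The share of Igfbp1 was 3.50% ± 3.82 and 7.87% ± 7.34. It reached 19.1% in CACS mouse 16, 11.01% in CACS mouse 17 and 10.1% in NCACS mouse 15, and was at most 5.25% in the remaining livers. Igfbp7 took 5.73% ± 1.4997 and 3.93% ± 0.567, and Igfbp3 0.805% ± 0.525 and 0.500% ± 0.257. These shares add to a fixed total and were not tested.

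**Figure D3:**
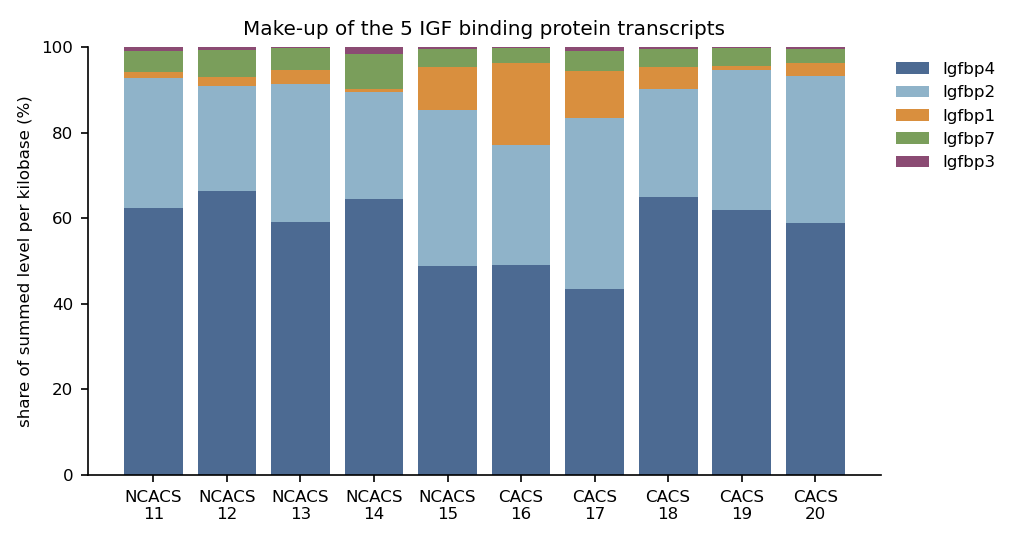
Share of each of the 5 binding protein transcripts in their summed level per kilobase of exon (%), one stacked bar per liver. Igfbp4 and Igfbp2 form most of every bar, and the Igfbp1 segment is widest in CACS mouse 16, at 19.1%.

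Whether the members follow weight loss was tested within groups, since NCACS mice had lost 3 to 14% and CACS mice 29 to 33% of their weight and the groups form separate clusters. The edgeR slope on weight change beside the group term passed the threshold for 0 of 8 members and for 0.0141% of all genes. At an unadjusted p under 0.05 the slope counted 3 members, Igfbp1, Igfbp3 and Igfbp7, against 7.62% of all genes. The log2 level of Igfbp1 changed by -0.31 per percent of weight change (SE 0.0993, edgeR adjusted p = 0.435), a negative slope meaning a higher level with greater loss. Without NCACS mouse 15 this slope was -0.24 (edgeR adjusted p = 0.653). The slopes of Igfbp3 (0.13 per percent, edgeR adjusted p = 0.529) and Igfbp7 (0.045 per percent, edgeR adjusted p = 0.516) had the opposite sign, and without NCACS mouse 15 they were 0.24 (edgeR adjusted p = 0.310) and 0.040 (0.626).

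Ordered by weight loss, the NCACS mice were 14, 11, 12, 13 and 15. Along that order Igfbp1 stood at 5.75, 12.4, 17.1, 27.1 and 95.7 CPM, higher at each step, and Igf1 at 561, 509.5, 501, 491 and 396 CPM, lower at each step. The NCACS mice with the greatest loss thus had the least Igf1, while the CACS livers, with still greater loss, had more Igf1 than any of them. In CACS mice, whose losses span a narrow range, neither gene followed the order. These orders were noticed after the values were seen and carry no test. The within-group slope of Igf1 was 0.015 per percent (SE 0.0236, edgeR adjusted p = 0.952), and it was -0.014 without NCACS mouse 15.

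**Figure D4:**
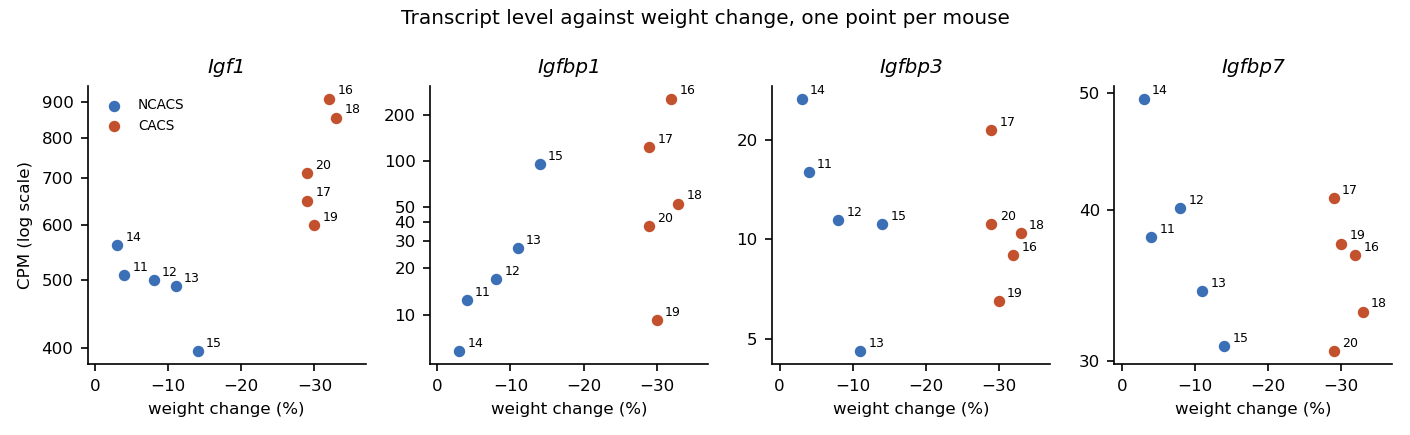
Level in CPM (log axis) against weight change (%), one point per mouse with its number, for Igf1 and the 3 members with the smallest p for the slope. In NCACS mice Igfbp1 goes from 5.75 to 95.7 CPM and Igf1 from 561 to 396 CPM with greater loss, and the CACS mice show no such order.

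Upstream of Igf1, the list of 16 growth hormone signalling genes had 15 tested, with 3 past the threshold as higher in CACS and 1 as lower (median log2 fold change 0.06). Over all genes tested, 1.89% were past it as higher and 1.92% as lower. The receptor Ghr was lower, with 608, 543, 428, 696 and 634 CPM in NCACS livers 11 to 15. Among CACS livers, mice 16 to 20, it had 357, 407, 432, 377 and 311 CPM. The groups touched only through NCACS mouse 13 and CACS mouse 18, with a log2 fold change of -0.63 (edgeR adjusted p = 0.0388). Jak2 (-0.19) and Stat5b (-0.18), the kinase and the transcription factor below the receptor, did not pass the threshold, with edgeR adjusted p of 0.325 and 0.644. Stat5b was 110 CPM in NCACS mouse 15 and 52.7 to 64.0 CPM in the other NCACS livers.

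Among the feedback inhibitors that STAT5 induces, Socs2 averaged 8.99 ± 3.64 CPM across NCACS livers and 62.2 ± 17.6 CPM across CACS livers (n = 5 each, ± SD), the largest change in the list without overlap between groups. Every NCACS liver had 14.4 CPM or less and every CACS liver 47.1 CPM or more, a separation that 7.07% of all genes showed. The log2 fold change of 2.79 (edgeR adjusted p = 0.00203) stayed past the threshold whichever of the 10 mice was left out. Cish, which STAT5 also induces, was 14.04 ± 14.03 and 28.9 ± 14.99 CPM (log2 fold change 1.04, edgeR adjusted p = 0.293), with NCACS mouse 11 at 38.8 CPM inside the CACS range. Lower Ghr thus stood beside higher Igf1 and Socs2 and an Igfals level that did not pass the test.

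The other genes of the list past the threshold were transcription factors. Cux2, a repressor normally more abundant in female liver, was at most 0.653 CPM in NCACS livers. In CACS livers 16 to 20 it was 30.6, 0.551, 17.3, 0.817 and 53.4 CPM, so that 3 livers carried the difference (log2 fold change 5.44, edgeR adjusted p = 0.0298, limma-voom adjusted p = 0.319). Hnf4a, a master regulator of hepatocyte genes and also one of the hepatocyte markers, was 632 ± 42.5 and 891 ± 116 CPM (log2 fold change 0.50, edgeR adjusted p = 0.0435). On the hepatocyte marker scale, to which Hnf4a itself contributes, its log2 fold change was 0.23 (edgeR adjusted p = 0.262). Of the 15 genes tested in this list, 6 had an unadjusted edgeR p under 0.05, against 21.6% of all genes. Beside those past the threshold, these were Onecut1 (log2 fold change 2.03, edgeR adjusted p = 0.0772) and Bcl6 (-1.17, edgeR adjusted p = 0.0806).

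**Figure D5:**
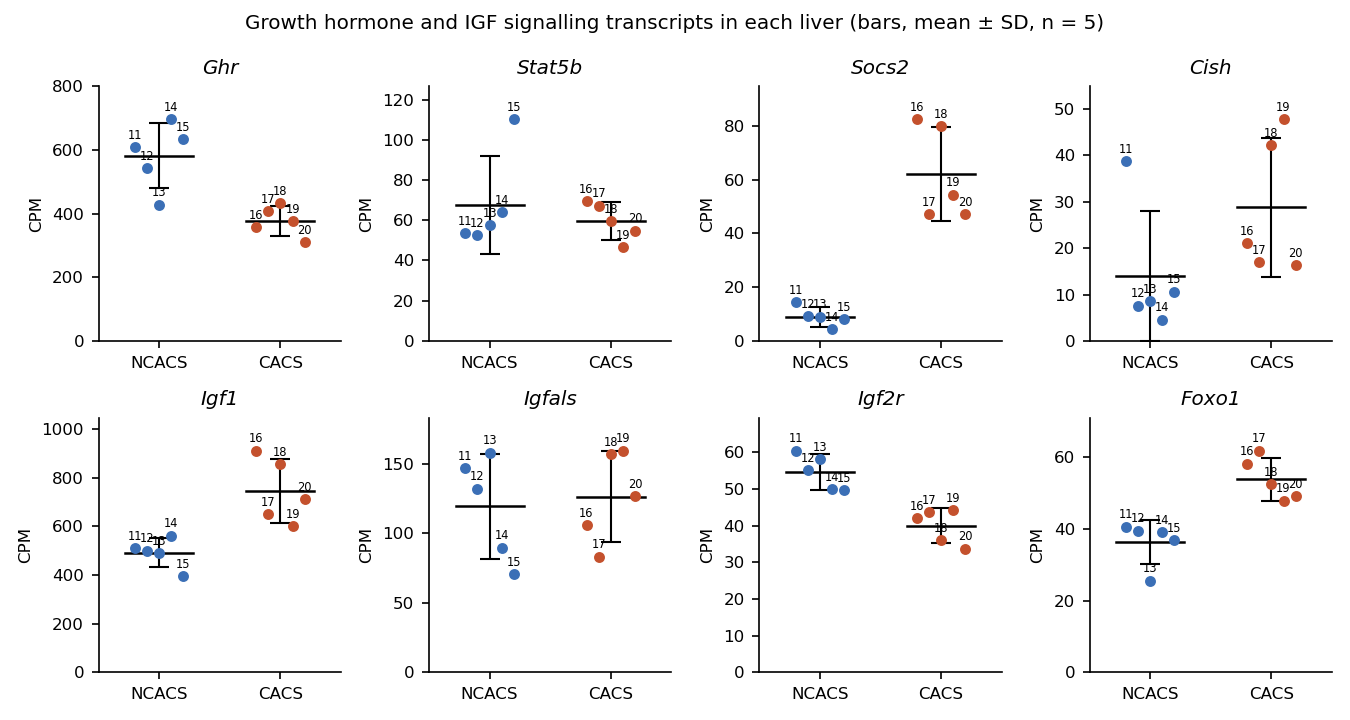
Level in CPM of 8 growth hormone and IGF signalling genes in every liver, points numbered by mouse, with the mean and 1 SD (n = 5 per group, cut at 0). Ghr and Igf2r are lower and Socs2, Igf1 and Foxo1 higher in CACS livers, though Ghr overlaps at mice 13 and 18, while Stat5b, Cish and Igfals overlap and did not pass the test.

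The remaining IGF system list held 19 genes, 12 of them tested (median log2 fold change -0.31). Past the threshold were 0 as higher and 1 as lower in CACS, against 3.80% of all genes in either direction. The gene that passed was Igf2r, the receptor that takes up IGF2 for lysosomal breakdown and sorts lysosomal enzymes. It stood at 60.5, 55.2, 58.1, 49.9 and 49.7 CPM in NCACS livers 11 to 15. In CACS livers 16 to 20 it stood at 42.1, 43.6, 36.2, 44.3 and 33.8 CPM (log2 fold change -0.45, edgeR adjusted p = 0.0359). All were below every NCACS liver, a separation that 7.07% of all genes showed. Without one mouse at a time the edgeR adjusted p of Igf2r passed in 2 of 10 fits and ranged from 0.0419 to 0.0812. The related insulin receptor Insr was similar in both groups, at 153 ± 23.3 and 140 ± 16.9 CPM (log2 fold change -0.13, edgeR adjusted p = 0.592). Igf2, the fetal IGF, was near the floor at 0.783 ± 0.254 and 0.450 ± 0.218 CPM (edgeR adjusted p = 0.257). The binding protein Igfbp5 was 26.1 ± 15.7 and 21.1 ± 12.2 CPM (edgeR adjusted p = 0.746). The IGFBP4 protease gene Pappa and 6 further genes (Igfbpl1, Insrr, Pappa2, Stc1, Stc2 and Ccn3) had at most 16 counts in any liver and were not tested.

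Downstream, the list of insulin and IGF signalling held 26 genes, all tested (median log2 fold change -0.04). Of these, 2 were past the threshold as higher in CACS and 0 as lower, against 3.80% of all genes in either direction. Pik3r1, the regulatory subunit of PI3 kinase, was 63.1 ± 11.3 and 99.4 ± 14.8 CPM (log2 fold change 0.66, edgeR adjusted p = 0.0323). Foxo1, the transcription factor that insulin signalling keeps out of the nucleus and that drives Igfbp1, was 36.4 ± 6.18 and 54.0 ± 5.97 CPM (SD, n = 5 each, log2 fold change 0.57, edgeR adjusted p = 0.0375). Both groups of livers were apart for Foxo1, the lowest CACS level being 47.9 CPM and the highest NCACS level 40.7 CPM. Such separation was seen for 7.07% of all genes. On the hepatocyte marker scale the log2 fold change of Foxo1 was 0.32 (edgeR adjusted p = 0.219) and that of Pik3r1 was 0.41 (edgeR adjusted p = 0.0490). The substrates Irs1 and Irs2 and the kinases Akt1 and Akt2 lay between -0.28 and 0.21 on the log2 scale, and none passed the threshold.

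The marker lists showed few calls beside these changes. Over all genes tested, 3.80% passed the threshold. The Kupffer list had 1 of 7 genes past the threshold, Cd5l, a secreted macrophage protein, whose mean was 74.6 ± 18.1 CPM for NCACS against 39.9 ± 10.8 CPM for CACS (log2 fold change -0.90, edgeR adjusted p = 0.0374), and all 7 had negative differences. The lung epithelial list had 1 of 3 tested, Sftpa1, at 1.41 and 3.42 CPM (edgeR adjusted p = 0.0323). With one mouse left out at a time, Ghr and Cd5l passed in 2 of 10 fits, Hnf4a and Foxo1 in 1, Cux2 and Sftpa1 in 3 and Pik3r1 in 4. On raw library totals Ghr (edgeR adjusted p = 0.0542), Igf2r (0.0588) and Foxo1 (0.0531) did not pass. On the hepatocyte marker scale Igf2r (log2 fold change -0.69, edgeR adjusted p = 0.0102), Ghr (-0.88, 0.0217) and Cd5l (-1.14, 0.0050) passed. So did Cux2 (5.16, 0.0180), Sftpa1 (1.03, 0.0480) and Socs2 (2.57, 0.00183). None of the sinusoidal endothelial, stellate, cholangiocyte, lymphocyte and neutrophil markers passed. At an unadjusted p under 0.05, against 21.6% of all genes, stood 3 of 3 tested neutrophil markers (median log2 fold change -1.66), 2 of 3 lymphocyte markers (-0.68) and 4 of 7 Kupffer markers (-0.80), all with negative medians. So did 2 of 9 stellate, 2 of 8 hepatocyte, 1 of 5 cholangiocyte, 1 of 3 lung epithelial and 0 of 9 sinusoidal endothelial markers. Some of these genes were near the floor, such as S100a8 (1.73 and 0.49 CPM) and Cd79a (0.78 and 0.35 CPM) in NCACS and CACS livers. The part of cell composition in the values of the members was not tested.

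The genes whose level followed Igf1 most closely within groups were Nfia (Pearson r = 0.930, Spearman rho = 0.952), Podxl (0.925 and 0.915) and AI480526 (0.923 and 0.867), among 9234 genes of at least 5 CPM. The correlations are over the deviations of 10 livers from their group means. They come from the same libraries and are a description. Without CACS mice 16 and 18, the livers farthest from the median of Igf1, r was 0.900, 0.991 and 0.882. Podxl was also higher in CACS (log2 fold change 0.60, edgeR adjusted p = 0.0429), whereas Nfia (0.28) and AI480526 (-0.18) did not pass. Among the members, Igfbp2 ran opposite to Igf1 (r = -0.637, rho = -0.612, r = -0.671 without mice 16 and 18), although both had positive group differences, and Igfals followed it weakly (r = 0.213, rho = 0.139).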

How the data were processed

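RNA of livers from 5 NCACS and 5 CACS male KL mice was sequenced as single-end, stranded poly(A) libraries. The authors aligned reads to GRCm38 with STAR (2.4.1d), counted them per gene with HTSeq (0.6.1), and deposited raw counts without normalization. Annotation release and strand setting are not given in the sources used here, so overlapping and antisense genes are uncertain. Their batch correction was over a larger set of livers and is not applied here; the labels name no batch. Groups, mouse numbers and weight change came from the labels, which name separate mice. One further allele that mice of both groups carry is not reported here. All 10 sample columns were used (0 were left over).

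Symbols and positions came from GENCODE M21, which lacked 1081 identifiers (70 tested). Counts were filtered with filterByExpr, scaled by TMM and tested over 14143 genes with edgeR 4.0.16 (quasi-likelihood, limma 3.58.1, R 4.3.3), with Benjamini-Hochberg adjusted p under 0.05 as threshold. The prior count for log2 CPM was 2. Levels between genes were divided by merged exon length (RPKM). Exact permutation used scipy 1.17.1, and figures matplotlib 3.10.9. No 2 livers of a group were one library deposited again (smallest chi-square per degree of freedom 46.1). The fit was tested on simulated data with 200 genes changed by a log2 fold change of 2 in either direction. That is larger than the change of Igf1, so the simulation does not bear on calls of its size. Motifs were searched in RefSeq promoter windows, and exon bases were trimmed from the sequences printed.

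All 8 members are named, as is every listed gene past the threshold, and the 3 genes of at least 5 CPM closest to Igf1. Further list genes, named for their role, were chosen after values were seen. The members and lists were chosen with earlier results of these data known. Alternatives were other scaling, filters, DESeq2 1.42.0, limma-voom, a robust fit, transcript length, and leaving out each mouse. Hepatocyte marker scaling was added after seeing the data.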

Additional observations from a re-analysis of the deposited data

Results flagged for a closer look

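Of 16 groups of livers examined (8 members in NCACS and in CACS), 1 held a liver far from the others. Igfbp4 in CACS mouse 17 was 1411 CPM, and on the log2 CPM scale its gap to the nearest CACS liver was 0.778 of the group's whole range, above the critical value of 0.71 for 5 livers. Chance alone marks about 1 in 20 such groups. Without CACS mouse 17 the difference of Igfbp4 did not pass the threshold, with the log2 fold change for any one mouse left out between 0.27 and 0.39.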

How the results depend on the processing

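Genes past the threshold numbered 538 (267 higher, 271 lower). DESeq2 gave 1386 (672 and 714). Hepatocyte marker scaling gave 1208 (83 and 1125, so 6.87% higher against 49.6%), and no filter gave 173 higher. Genes with a weight slope went from 2 to 33 with no filter. The members past the threshold were 0 under hepatocyte marker scaling, upper-quartile factors and no filter, where Igf1 had a log2 fold change of 0.36, 0.59 and 0.60 (edgeR adjusted p = 0.159, 0.0506 and 0.0627). DESeq2 gave Igf1 alone (adjusted p = 0.0020), as did RLE factors, raw library totals, a minimum of 10 counts, limma-voom and the robust fit. Igfals was -0.15 and Igf1r -0.17 under hepatocyte marker scaling, and Igf1r was -0.044 with limma-voom. With the longest transcript as length Igf1 was 87.7 and Igfbp2 292 RPKM, and the CACS share of Igfbp7 was 3.25%. With at least 10 counts in every liver Igf1r was not tested.

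Leaving out each mouse gave 178 to 519 genes (79 to 246 higher, 96 to 273 lower), 0 to 1 members, and 0 to 6 genes with a weight slope. The log2 fold change ranged from 0.52 to 0.67 for Igf1, -0.055 to 0.20 for Igfals, -0.59 to 0.12 for Igfbp3 and -0.17 to 0.39 for Igf1r. Slopes ranged from -0.0145 to 0.0223 for Igf1, -0.0672 to 0.0428 for Igfals, -0.0427 to 0.0195 for Igfbp2, 0.0932 to 0.243 for Igfbp3, 0.0302 to 0.0559 for Igfbp7 and -0.0798 to 0.0701 for Igf1r. The cause of these shifts was not tested. No paired analysis was possible because mouse numbers 11 to 15 and 16 to 20 do not recur between groups. Depth limits Igf1r, with 3 to 33 counts.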

Other observations

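Genes that insulin holds down or fasting raises were listed as background to Igfbp1 and Igfbp2. Of 14 tested, 0 passed the threshold (edgeR), where 3.80% of all genes did. An unadjusted p under 0.05 was found for 6 (21.6% of all genes), and 10 had positive differences (6982 of all 14143 genes did, median log2 fold change of the list 0.25). The gluconeogenic gene Pck1 averaged 1958 ± 602 CPM across NCACS and 3393 ± 1500 CPM across CACS livers (SD, n = 5 each, log2 fold change 0.79, edgeR adjusted p = 0.158), and G6pc was 214 ± 129 and 531 ± 410 CPM (1.31, edgeR adjusted p = 0.223). The 3 livers with the most Igfbp1, of CACS mice 16 and 17 and NCACS mouse 15, had 727, 1105 and 432 CPM of G6pc, and CACS mouse 18 had 534 CPM. In CACS mouse 19, with 9.21 CPM of Igfbp1, G6pc was 96.9 CPM. NCACS mouse 14, with the least Igfbp1 (5.75 CPM), had 166 CPM of G6pc. That was more than the 155 CPM of NCACS mouse 13, which had 27.1 CPM of Igfbp1. These livers were named after the values were seen, and whether Igfbp1 and G6pc run together was not tested.

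Of 12 genes that depend on the male pattern of growth hormone, 0 passed (edgeR), where 3.80% of all genes did. An unadjusted p under 0.05 was found for 3, a share near the 21.6% of all genes, and 10 had negative differences (7161 of all 14143 genes did, median log2 fold change of the list -0.69). Elovl3, a fatty acid elongase, averaged 129 ± 109 CPM across NCACS and 20.2 ± 20.8 CPM across CACS livers (-2.67, edgeR adjusted p = 0.0580). NCACS mouse 15 had 321 CPM of it, and the other NCACS livers 57.8 to 102 CPM. The urinary pheromone carrier Mup3 was 5409 ± 870 and 2706 ± 1366 CPM (-0.999, edgeR adjusted p = 0.132). Egfr (0.63, edgeR adjusted p = 0.240) and Serpina3k (0.09) were the 2 with positive differences. Cyp4a12a (-0.98, edgeR adjusted p = 0.0950), Mup20 (-1.35), Ugt2b38 (-0.86), Cyp7b1 (-0.71) and Hsd3b5 (-0.67) were also lower and did not pass. Differences were small for Cyp2d9 at -0.07, Slco1a1 at -0.06 and Gstp1 at -0.05.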
